A study of Mus musculus with 12 samples.

Results

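The proteasome genes of hippocampal microglia were examined in mice whose brains had been irradiated and in sham-treated mice of the strains Balb/c and C57BL/6. Members were all genes whose annotated symbol begins with Psma, Psmb, Psmc, Psmd, Psme or Psmg and a digit. This gave 50 symbols among 18194 genes on the array, read by 100 probe sets, and each gene was represented by its brightest probe set. Psme2 and Psme2b share the only probe set that reads them, so they form 1 feature, written Psme2/Psme2b, and the 50 symbols gave 49 features. Of these, 47 passed the filter for detection, a log2 value above 5 in at least 3 arrays, as did 9121 genes in all. Psmb11, a beta subunit of thymic epithelium, lay at the bottom of the scale with 2.23 on all 12 arrays, and Psmd9, an assembly chaperone of the cap, ranged from 3.80 to 4.91. These 2 members were not tested.

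The cells were taken as CD11b+ cells by flow cytometry, 5000 to 10000 from each female mouse. The 4 groups were Balb/c irradiated, Balb/c sham, C57BL/6 irradiated and C57BL/6 sham, with 3 arrays each and 1 mouse on each array. Irradiated mice received a single X-ray dose of 10 Gy to a circular forebrain field of 1 cm under anaesthesia at 6.5 weeks of age, and all mice were analysed 1 month later at 10.5 weeks. The comparisons ask how the proteasome genes differ after irradiation in each strain and between the strains. Precision is set by the small number of arrays.

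The proteasome is the barrel-shaped protease that degrades proteins tagged with ubiquitin. Its core particle, the 20S, is built of alpha and beta rings, and only some beta subunits cut peptide bonds. A 19S cap of ATPases and other subunits recognises, unfolds and feeds in the substrates. Interferons induce alternative catalytic subunits, encoded by Psmb8, Psmb9 and Psmb10, that replace those encoded by Psmb5, Psmb6 and Psmb7 in newly made particles. The resulting immunoproteasome, helped by the PA28 activator of Psme1 and Psme2, changes the peptides offered to MHC class I, and microglia are among the brain cells known to make it.

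The sort was rich in microglial transcripts, and 7 of 8 microglial markers were on the array and above the filter. The summed signal of these markers, as the log2 of the sum of linear values, was 16.6 to 16.73 in Balb/c irradiated, 16.68 to 16.83 in Balb/c sham, 16.68 to 16.89 in C57BL/6 irradiated and 16.83 to 16.9 in C57BL/6 sham arrays. Transcripts of other cells were present, and fewer cells of a type cannot be told apart from less RNA per cell. The largest sum among the other cell types listed was that of oligodendrocytes, with 3 markers on the array, all above the filter. It was 14.99 to 15.38 in Balb/c irradiated, 14.63 to 15.33 in Balb/c sham, 15.2 to 15.39 in C57BL/6 irradiated and 15.08 to 15.48 in C57BL/6 sham arrays. None of these markers was called in any comparison. Of 6 monocyte markers on the array 5 passed the filter, and their sum was 10.54 to 11.11 in Balb/c irradiated against 9.62 to 9.95 in Balb/c sham arrays, and 10.93 to 11.21 in C57BL/6 irradiated against 8.99 to 9.97 in C57BL/6 sham arrays. Of 8 T and NK cell markers, 7 were below 5 on all arrays. Cdkn1a, the p53 target that arrests the cell cycle, was higher after irradiation by 3.12 ± 0.21 in Balb/c and by 4.35 ± 0.21 in C57BL/6 (log2, SE). In each strain every irradiated array lay above every sham array for Cdkn1a, a gene that was named after its values were seen.

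One group differed in a measure of RNA quality. The 3' minus 5' signal of the Actb and Gapdh control probe sets, which grows as RNA or its copies shorten, was 4.25 ± 0.56 in Balb/c irradiated, 3.69 ± 0.14 in Balb/c sham, 3.63 ± 0.12 in C57BL/6 irradiated and 3.64 ± 0.13 in C57BL/6 sham arrays (log2, mean ± SD, n = 3 each). The highest value, 4.82, belonged to replicate 2 of the Balb/c irradiated mice. The results of the members are therefore also given, where it alters them, with this measure as a covariate. They are also given without that array and C57BL/6 irradiated replicate 3, both known from earlier results to stand apart. The mean of this measure was highest in Balb/c irradiated arrays, so the part of the covariate cannot be fully told apart from that of the group. Genes outside the member set are given from the main fit alone, and whether these alternatives alter their calls is not shown here. A second measure moved with irradiation in both strains. The signal of the 18S ribosomal RNA control probe sets averaged 10.48 to 11.6 in Balb/c irradiated against 11.93 to 12.32 in Balb/c sham arrays, and 11.55 to 11.77 in C57BL/6 irradiated against 12.05 to 12.31 in C57BL/6 sham arrays. No irradiated array reached the lowest sham array of its own or the other strain, and the part of this signal in the irradiation results, those of Psmc1 and Psme3ip1 included, was not tested.

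The promoters of 4 members are shown because Psmb8, Psmb9 and Psme1 are the inducible members with the smallest p in the comparison of irradiated strains described further on, and Psmb5 encodes the constitutive counterpart of Psmb8. Each window runs from 250 bases before the annotated start to 50 bases after it, 5′ to 3′ on the gene's strand, from RefSeq on GRCm38.p6. Capitals mark matches, on either strand, to 3 motifs: the interferon-stimulated response element as GAAA and GAAA parted by any 2 bases, the gamma-activated site as TTCNNNGAA and the antioxidant response element core as TGACNNNGC.
Psmb8: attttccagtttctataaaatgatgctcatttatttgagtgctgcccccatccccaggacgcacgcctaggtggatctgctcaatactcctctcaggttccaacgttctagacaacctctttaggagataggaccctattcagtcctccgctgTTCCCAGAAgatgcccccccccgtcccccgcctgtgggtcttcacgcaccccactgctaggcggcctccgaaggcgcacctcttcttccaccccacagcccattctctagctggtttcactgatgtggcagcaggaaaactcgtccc
Psmb9: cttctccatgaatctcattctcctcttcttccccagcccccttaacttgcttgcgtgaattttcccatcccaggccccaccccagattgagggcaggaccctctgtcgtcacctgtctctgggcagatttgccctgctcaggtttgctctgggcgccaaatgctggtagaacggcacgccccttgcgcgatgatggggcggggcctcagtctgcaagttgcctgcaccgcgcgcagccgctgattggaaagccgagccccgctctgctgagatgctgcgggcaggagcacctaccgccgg
Psme1: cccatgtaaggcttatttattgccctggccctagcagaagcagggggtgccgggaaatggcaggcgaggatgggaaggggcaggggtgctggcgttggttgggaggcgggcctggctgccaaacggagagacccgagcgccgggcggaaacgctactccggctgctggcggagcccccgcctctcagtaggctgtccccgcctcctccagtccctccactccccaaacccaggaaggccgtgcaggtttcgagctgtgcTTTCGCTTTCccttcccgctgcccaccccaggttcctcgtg
Psmb5: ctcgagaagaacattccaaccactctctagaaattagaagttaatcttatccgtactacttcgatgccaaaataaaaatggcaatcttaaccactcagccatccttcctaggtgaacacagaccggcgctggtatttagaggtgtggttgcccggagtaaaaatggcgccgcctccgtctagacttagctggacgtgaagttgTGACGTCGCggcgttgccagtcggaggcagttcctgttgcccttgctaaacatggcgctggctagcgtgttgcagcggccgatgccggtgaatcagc
The Psmb8 window, chr17:34197945-34198244 on the plus strand, held a gamma-activated site match from -97 to -89, where the annotated first base is 0. The Psmb9 window, chr17:34187281-34187580 on the minus strand, held none of the 3 motifs, and neither did the Tap1 window that overlaps it on the other strand. The Psme1 window, chr14:55578244-55578543 on the plus strand, held an interferon-stimulated response element match from 9 to 18. The Psmb5 window, chr14:54617946-54618245 on the minus strand, held an antioxidant response element match from -47 to -39. These are matches of letters, not measured binding sites.

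RefSeq windows were found for 42 of the 50 symbols, 46 windows in all. The interferon motif was in 5 of 46 member windows (10.9%), those of Psmd4, Psmd9, Psmb3, Psmg4 and Psme1, against 3.44% of all 32851 windows. The gamma-activated site was in 3 of 46 (6.52%), those of Psmd2, Psmg1 and Psmb8, against 8.3% of all windows. The antioxidant motif, read by the stress factors of the Nrf family, was in 6 of 46 (13%), those of Psmd9, Psme4, Psmb6, Psmd12, Psmc6 and Psmb5, against 12.4% of all windows. Among the inducible members a match was thus found for Psmb8 and Psme1.

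The inducible members showed no called change with irradiation in either strain. Psmb9 (chr17:34182030-34187330), the inducible counterpart of Psmb6, had log2 values of 8.69, 7.99 and 8.33 in Balb/c irradiated and 8.83, 8.72 and 8.73 in Balb/c sham arrays. In C57BL/6 it had 9.0, 9.24 and 9.41 in irradiated and 9.04, 8.94 and 8.92 in sham arrays. The irradiated Balb/c arrays were all below the Balb/c sham arrays, while in C57BL/6 the lowest irradiated array lay among the sham arrays. The log2 difference between irradiated and sham was -0.42 ± 0.17 in Balb/c (SE, limma adjusted p = 0.167) and 0.25 ± 0.17 in C57BL/6 (limma adjusted p = 0.41).

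Psmb8 (chr17:34198195-34201454), which replaces the chymotrypsin-like subunit Psmb5, had 9.87, 9.30 and 9.82 in Balb/c irradiated and 9.54, 10.02 and 10.00 in Balb/c sham arrays. It had 10.24, 10.30 and 10.47 in C57BL/6 irradiated and 10.23, 10.20 and 10.12 in C57BL/6 sham arrays. The Balb/c groups overlapped, and the C57BL/6 groups were parted narrowly, the lowest irradiated array lying just above the highest sham array. Its irradiation differences were -0.19 ± 0.17 in Balb/c and 0.15 ± 0.17 in C57BL/6.

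Psmb10 (chr8:105935728-105938392), the counterpart of Psmb7, had 9.98, 9.92 and 9.96 in Balb/c irradiated and 10.16, 10.09 and 10.23 in Balb/c sham arrays. It had 10.12, 10.34 and 10.20 in C57BL/6 irradiated and 10.53, 9.93 and 10.13 in C57BL/6 sham arrays. The irradiated Balb/c arrays all lay below their sham arrays, with a difference of -0.21 ± 0.14, and the C57BL/6 groups overlapped, with a difference of 0.02 ± 0.14.

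Psme1 (chr14:55578494-55581527), the alpha subunit of PA28, had 9.96, 9.78 and 9.86 in Balb/c irradiated and 10.10, 9.94 and 10.31 in Balb/c sham arrays. It had 10.11, 10.13 and 10.48 in C57BL/6 irradiated and 9.86, 10.08 and 10.05 in C57BL/6 sham arrays. Its groups overlapped in Balb/c (-0.25 ± 0.14) and not in C57BL/6 (0.24 ± 0.14).
Psme2/Psme2b, which reads the beta subunit of PA28 and its near copy, had 11.02, 10.72 and 11.06 in Balb/c irradiated and 10.98, 10.97 and 11.07 in Balb/c sham arrays, and 11.11, 11.14 and 11.26 in C57BL/6 irradiated and 11.11, 11.13 and 10.95 in C57BL/6 sham arrays. Both pairs of groups overlapped, with differences of -0.07 ± 0.12 in Balb/c and 0.11 ± 0.12 in C57BL/6.

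**Figure D1:**
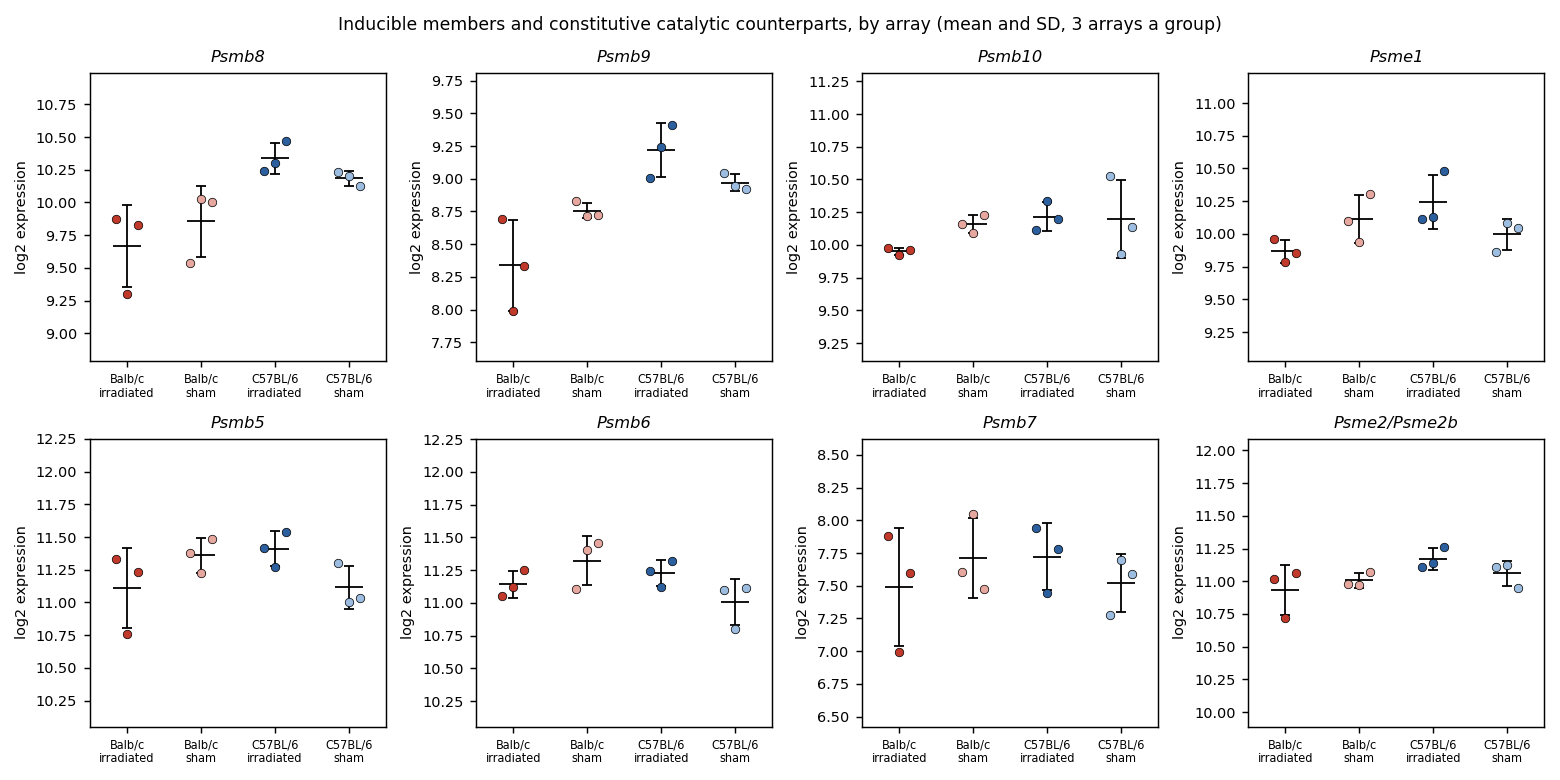
Log2 expression of the 5 inducible members (Psmb8, Psmb9, Psmb10, Psme1, Psme2/Psme2b) and of the constitutive catalytic members Psmb5, Psmb6 and Psmb7. Points are arrays in order of replicate number, lines and bars are the mean ± SD (n = 3), and every panel spans the same number of log2 units. Psmb9 runs from 7.99 to 8.69 in Balb/c irradiated arrays and from 9.0 to 9.41 in C57BL/6 irradiated arrays.

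All 5 inducible members had a negative irradiation difference in Balb/c, from -0.42 to -0.07 with a median of -0.21, and a positive one in C57BL/6, from 0.02 to 0.25 with a median of 0.15. Averaged over the strains they lay between -0.09 and 0.02. Some of the Balb/c signs and sizes changed when the 3' minus 5' covariate was added and when 1 array was left out. With the 3' minus 5' covariate the Balb/c differences were 0.09 for Psmb8, 0.07 for Psme2/Psme2b and -0.09 for Psmb9, and without Balb/c irradiated replicate 2 they were -0.01 for Psmb8, 0.03 for Psme2/Psme2b and -0.24 for Psmb9. Psmb10 and Psme1 stayed negative, at -0.213 and -0.178 with the covariate and at -0.191 and -0.205 without that array. The 95% intervals of all 5 stayed within a 2-fold change in each strain, their bounds being -0.79 and 0.19 in Balb/c and -0.30 and 0.62 in C57BL/6. The constitutive catalytic members had the same signs. Psmb5, Psmb6 and Psmb7 were at -0.25 ± 0.16, -0.18 ± 0.13 and -0.22 ± 0.24 in Balb/c, and at 0.30 ± 0.16, 0.22 ± 0.13 and 0.20 ± 0.24 in C57BL/6.

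Psmb5, the chymotrypsin-like subunit, had 11.33, 10.76 and 11.24 in Balb/c irradiated against 11.37, 11.22 and 11.49 in Balb/c sham arrays, and 11.42, 11.27 and 11.54 in C57BL/6 irradiated against 11.30, 11.00 and 11.04 in C57BL/6 sham arrays. Psmb6, the caspase-like subunit, had 11.05, 11.12 and 11.25 in Balb/c irradiated against 11.11, 11.40 and 11.46 in Balb/c sham arrays, and 11.24, 11.12 and 11.32 in C57BL/6 irradiated against 11.10, 10.80 and 11.11 in C57BL/6 sham arrays. Psmb7, the trypsin-like subunit, had 7.88, 7.0 and 7.60 in Balb/c irradiated against 7.61, 8.05 and 7.47 in Balb/c sham arrays, and 7.94, 7.45 and 7.78 in C57BL/6 irradiated against 7.27, 7.70 and 7.59 in C57BL/6 sham arrays. Of these 3 members only Psmb6 in C57BL/6 had groups that did not overlap.

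The change of each inducible gene was then set against that of its counterpart within each array. In Balb/c the log2 ratio of Psmb8 to Psmb5 changed by 0.06 with irradiation (SD of the irradiated arrays 0.028, of the sham arrays 0.318, n = 3 each), that of Psmb9 to Psmb6 by -0.24 (SD 0.396 and 0.247) and that of Psmb10 to Psmb7 by 0.01 (SD 0.423 and 0.369). In C57BL/6 the same ratios changed by -0.14 (SD 0.1 and 0.135), 0.02 (SD 0.198 and 0.165) and -0.18 (SD 0.367 and 0.521). In all 6 cases the irradiated arrays overlapped the sham arrays, so a shift of the inducible against the constitutive catalytic subunits was not measured beyond the spread between mice.

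Within each strain, no member of the complex was called with irradiation. In Balb/c no member of 47 was called (limma, adjusted p under 0.05), where 6.15% of all tested genes were, and 4 members had an unadjusted p under 0.05, where 22.8% of all genes did. Those were Psmb9, Psmb4, Psmc3 and Psme3ip1, of which only Psmb4 was higher. In C57BL/6 no member was called either, where 3.67% of all tested genes were, and 5 had an unadjusted p under 0.05, where 21.3% of all genes did. Those 5 were all higher: Psmb2, Psmb3, Psmc1, Psmg1 and Psmg2. Irradiated and sham arrays did not overlap for 2 members that were higher and 5 that were lower in Balb/c, as for 12.8% and 16.3% of all genes, and for 10 higher and 2 lower in C57BL/6, as for 11.4% and 15.1% of all genes. The median irradiation difference of the 47 members was -0.07 in Balb/c and 0.10 in C57BL/6, beside -0.04 and -0.04 over all 9121 genes.

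**Figure D2:**
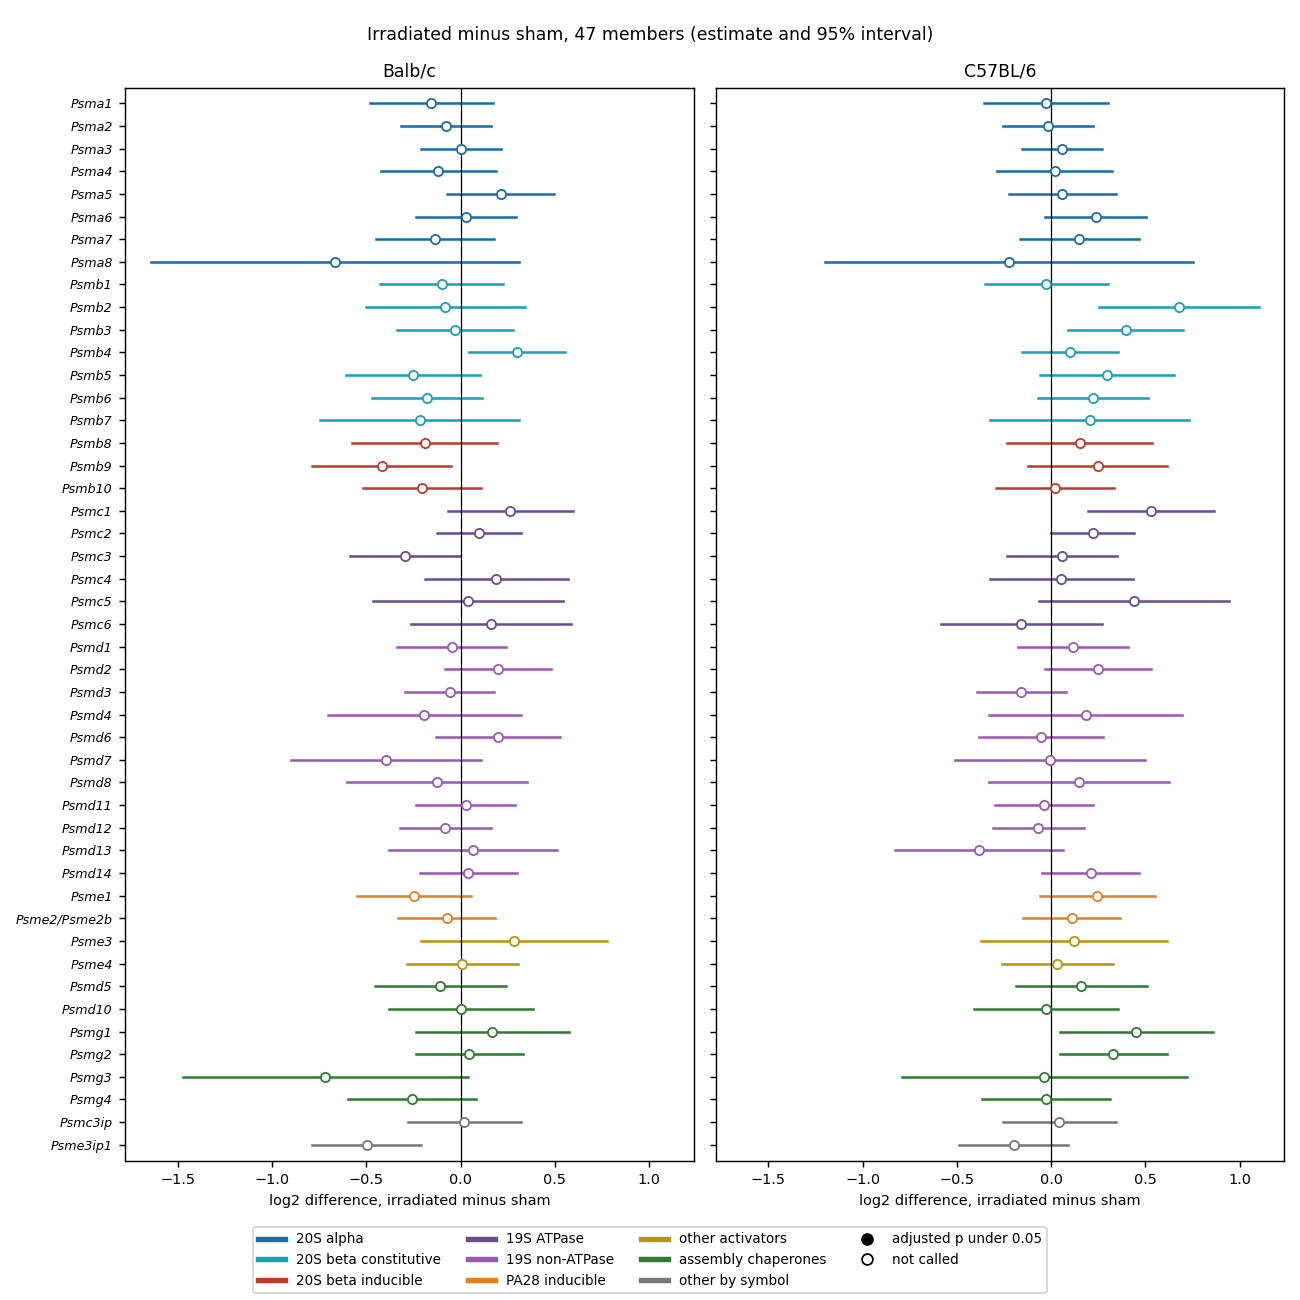
Irradiated minus sham log2 difference of each of the 47 tested members in Balb/c (left) and C57BL/6 (right), with 95% intervals from limma, coloured by role. Open circles mark members that were not called, which are all of them in both panels. The inducible members lie left of 0 in Balb/c and right of 0 in C57BL/6, as do Psmb5, Psmb6 and Psmb7.

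Averaged over both strains, 2 of 47 members were called, where 15.9% of all tested genes were, and 6 members had an unadjusted p under 0.05, where 31.7% of all genes did. Psmc1, the Rpt2 ATPase of the base of the 19S cap, rose, and Psme3ip1, which encodes a protein known in human cells to bind the nuclear activator PA28 gamma, fell. Psmc1 had 9.81, 9.85 and 10.06 in Balb/c irradiated and 9.68, 9.47 and 9.77 in Balb/c sham arrays, and 9.91, 9.92 and 9.76 in C57BL/6 irradiated and 9.48, 9.52 and 9.01 in C57BL/6 sham arrays. Every irradiated array lay above every sham array of its strain, by 0.40 ± 0.11 on average (limma adjusted p = 0.0314).
Psme3ip1 had 7.44, 7.08 and 7.54 in Balb/c irradiated and 7.75, 7.82 and 7.99 in Balb/c sham arrays, and 7.38, 7.46 and 7.32 in C57BL/6 irradiated and 7.54, 7.54 and 7.68 in C57BL/6 sham arrays. Every irradiated array lay below every sham array of its strain, and the average difference was -0.35 ± 0.09 (limma adjusted p = 0.0301). Both calls were lost with the 3' minus 5' covariate (limma adjusted p = 0.0813 for Psmc1 and 0.107 for Psme3ip1), without the 2 arrays that stood apart (0.0668 and 0.0876) and without a filter (0.0659 and 0.052). Of the 12 fits that left out 1 array, 5 lost Psmc1, with a limma adjusted p of 0.0555 to 0.075: those without C57BL/6 irradiated replicate 1 or 2, Balb/c sham replicate 1 or 2, or Balb/c irradiated replicate 3. Another 5 lost Psme3ip1, with 0.0574 to 0.0683: those without C57BL/6 irradiated replicate 1 or 3, C57BL/6 sham replicate 3, or Balb/c sham replicate 2 or 3.

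The alpha ring, which forms the gate of the core, held no called member among 8. Apart from Psma8, the alpha subunit known from testis, its 95% intervals stayed within a 2-fold change in each strain. Psma3 had the smallest spread of all members, with a pooled SD of 0.07, and Psma8 the largest, 0.617. Psma8 had 6.72, 7.10 and 7.03 in Balb/c irradiated and 8.29, 6.35 and 8.21 in Balb/c sham arrays, and 7.34, 7.08 and 6.71 in C57BL/6 irradiated and 7.5, 7.52 and 6.78 in C57BL/6 sham arrays. Balb/c sham replicate 2 lay below all other arrays. Without it Psma8 was called lower with irradiation in Balb/c (-1.30, limma adjusted p = 0.0336) and on average (-0.76, limma adjusted p = 0.0234), and higher in Balb/c sham than in C57BL/6 sham mice (0.98, limma adjusted p = 0.0448). The average irradiation differences of the members nearest to a call were 0.13 ± 0.09 for Psma6, 0.14 ± 0.09 for Psma5 and -0.45 ± 0.31 for Psma8.

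Among the 7 constitutive beta subunits none was called with irradiation. Psmb2, a structural subunit of the beta ring, had the largest difference in C57BL/6 among all members, with 9.11, 9.39 and 9.71 in irradiated against 8.85, 8.65 and 8.68 in sham arrays. In Balb/c it had 8.71, 8.94 and 8.82 in irradiated against 9.20, 8.51 and 9.01 in sham arrays. The groups were apart in C57BL/6 (0.68 ± 0.19, limma adjusted p = 0.0779) and overlapped in Balb/c (-0.08 ± 0.19). Psmb4, also structural, had 13.65, 13.45 and 13.53 in Balb/c irradiated against 13.13, 13.37 and 13.23 in Balb/c sham arrays, and 13.54, 13.28 and 13.40 in C57BL/6 irradiated against 13.18, 13.35 and 13.39 in C57BL/6 sham arrays. It was higher in all irradiated arrays of Balb/c (0.30 ± 0.12, limma adjusted p = 0.153), and its C57BL/6 groups overlapped.

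Besides Psmc1, the 6 ATPases of the cap included Psmc2, at 0.16 ± 0.07 averaged over the strains (limma adjusted p = 0.152), and Psmc5, at 0.24 ± 0.16. Of the 6, 5 had a positive difference in each strain. Psmc3 was the one with a negative difference in Balb/c, with 10.71, 10.31 and 10.69 in irradiated against 10.81, 10.95 and 10.84 in sham arrays (-0.30 ± 0.13, limma adjusted p = 0.211), and its groups did not overlap. In C57BL/6 that one was Psmc6, with 11.57, 10.87 and 11.37 in irradiated against 11.18, 11.56 and 11.55 in sham arrays, which overlapped (-0.16 ± 0.19).

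The 11 other cap subunits, which hold the ubiquitin receptors and the deubiquitinase, had average irradiation differences from -0.20 to 0.22 and none called. Psmd2, the scaffold Rpn1, was at 0.22 ± 0.09 (limma adjusted p = 0.12), Psmd14, the deubiquitinase Rpn11, at 0.13 ± 0.08, and Psmd3, the subunit Rpn3, at -0.11 ± 0.08. The 95% intervals of all 11 stayed within a 2-fold change in each strain.

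The other activators and the chaperones that assemble the proteasome held no called member either. Psme3, the nuclear PA28 gamma, was at 0.20 ± 0.16 on average and Psme4, the activator PA200, at 0.02 ± 0.09. Psmg1 and Psmg2, which together form a chaperone of the alpha ring, were at 0.31 ± 0.13 (limma adjusted p = 0.13) and 0.19 ± 0.09 (limma adjusted p = 0.186). Psmg1 had 7.15, 7.25 and 7.75 in C57BL/6 irradiated against 7.13, 6.92 and 6.75 in C57BL/6 sham arrays, and Psmg2 had 9.55, 9.45 and 9.61 in C57BL/6 irradiated against 9.10, 9.21 and 9.31 in C57BL/6 sham arrays. Both were parted in C57BL/6, and both overlapped in Balb/c, with differences of 0.17 ± 0.18 for Psmg1 and 0.04 ± 0.13 for Psmg2.
Psmg3, of a second chaperone pair, was at -0.38 ± 0.24 with a value of 4.91 in Balb/c irradiated replicate 2 beside 6.46 and 6.17 in that group's other arrays. Psmc3ip, which is in the set by its symbol and encodes a meiotic recombination cofactor, not a proteasome subunit, was at 0.03 ± 0.10.

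The strain by irradiation interaction was not called for any member, where 0.0767% of all tested genes were called. By limma, 4 members had an unadjusted p under 0.05, where 8.06% of all genes did: Psmb2 (-0.76 ± 0.27), Psmb9 (-0.67 ± 0.24), Psmb5 (-0.55 ± 0.23) and Psme1 (-0.49 ± 0.19), with limma adjusted p between 0.558 and 0.583. A negative value means a lower irradiation difference in Balb/c than in C57BL/6. The interaction median was -0.34 for the 5 inducible members, -0.42 for the 7 constitutive beta subunits and -0.21 for all 47 members, beside -0.02 for all genes. With the 3' minus 5' covariate 1 member in place of 4 had an unadjusted p under 0.05, and the interaction was -0.33 for Psmb9 and -0.05 for Psmb8, beside -0.67 and -0.34 without it. Leaving out the 2 arrays that stood apart gave 2 such members, with Psmb9 at -0.40 and Psmb8 at -0.09. Of the 47 members 37 had a negative interaction, beside 4810 of the 9121 genes tested.
In 17 members the irradiation difference was positive in C57BL/6 and negative in Balb/c, in 5 the reverse, and in 25 the sign was shared. Over all genes the sign was shared in 6211 of 9121. Across the 47 members the irradiation differences of the strains correlated with r = 0.242, beside 0.635 across all genes, where all points rest on the same 12 arrays. The members' pooled SD within groups had a median of 0.166, beside 0.217 for all genes.

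Between the strains, 3 of 47 members were higher in Balb/c sham than in C57BL/6 sham mice and none was lower, where 10.5% of all tested genes were called in either direction and 5.22% higher. Groups did not overlap for 5 higher and 2 lower members, as for 16.3% and 12.3% of all genes. Those called were Psmb3, a structural subunit of the beta ring, Psmd1, the scaffold Rpn2 of the cap, and Psmd14. Psmb3 had 11.81, 11.64 and 11.84 in Balb/c sham and 11.27, 11.13 and 10.91 in C57BL/6 sham arrays. The groups were far apart, by 0.66 ± 0.14 (1.58-fold, limma adjusted p = 0.0104), and the call was kept in all 12 fits that left out 1 array.
Psmd1 had 11.10, 11.21 and 11.30 in Balb/c sham and 10.53, 10.70 and 10.91 in C57BL/6 sham arrays (0.49 ± 0.13, limma adjusted p = 0.0374). Psmd14 had 11.83, 11.71 and 11.75 in Balb/c sham and 11.31, 11.33 and 11.35 in C57BL/6 sham arrays (0.43 ± 0.12, limma adjusted p = 0.0385). Both pairs of groups were apart, but neither call was kept with the 3' minus 5' covariate (limma adjusted p = 0.0518 for Psmd1 and 0.0511 for Psmd14), with each array centred on its mean (0.0555 and 0.0646) or with the compared groups alone (0.0875 and 0.0521). Psmd1 also lost its call without a filter (0.0598) and without the 2 arrays that stood apart (0.0548). Of the 12 fits that left out 1 array, 7 lost Psmd1 (limma adjusted p from 0.0528 to 0.125), those without any of the Balb/c sham arrays, C57BL/6 sham replicate 1 or 2, or C57BL/6 irradiated replicate 1 or 2. For Psmd14 the call was lost in 8 (0.0501 to 0.133), those without any sham array of either strain, C57BL/6 irradiated replicate 2 or Balb/c irradiated replicate 2. In irradiated mice the same differences were 0.23 ± 0.14 for Psmb3, 0.33 ± 0.13 for Psmd1 and 0.26 ± 0.12 for Psmd14, none called.

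The other classes held no strain call in sham mice. The members with the smallest p in each were Psma6 (0.23 ± 0.12), Psmb8 (-0.33 ± 0.17), Psmc1 (0.30 ± 0.15), Psme4 (0.30 ± 0.13), Psmg3 (0.39 ± 0.34) and Psme3ip1 (0.27 ± 0.13), with limma adjusted p from 0.21 to 0.569. Psme4 was called without C57BL/6 sham replicate 1 (0.44, limma adjusted p = 0.0407). Among the inducible members, Psmb8 and Psmb9 had lower values in every Balb/c sham array than in every C57BL/6 sham array, as 12.3% of all tested genes did. Neither was called, at -0.33 ± 0.17 (limma adjusted p = 0.301) and -0.21 ± 0.17 (limma adjusted p = 0.511).

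In irradiated mice Psmb8 and Psmb9 were called lower in Balb/c than in C57BL/6, and they were the only members called of 47, where 8.97% of all tested genes were called in either direction and 4.59% lower. Psmb9, at 8.69, 7.99 and 8.33 in Balb/c irradiated against 9.0, 9.24 and 9.41 in C57BL/6 irradiated arrays, was at 0.543-fold (-0.88 ± 0.17, limma adjusted p = 0.00686). Psmb8, at 9.87, 9.30 and 9.82 in Balb/c irradiated against 10.24, 10.30 and 10.47 in C57BL/6 irradiated arrays, was at 0.628-fold (-0.67 ± 0.17, limma adjusted p = 0.0368). Neither pair of groups overlapped. The replicate number was also used as a block, fitted over all 12 arrays with the sham groups included, so it did not pair these 2 groups alone. With it the count was 1 in place of 2: Psmb9 kept its call (limma adjusted p = 0.0132) and Psmb8 lost it (limma adjusted p = 0.0543). The differences of Psmb10 (-0.27 ± 0.14), Psme1 (-0.37 ± 0.14) and Psme2/Psme2b (-0.24 ± 0.12) were also negative and their groups did not overlap, but none was called, with limma adjusted p from 0.131 to 0.308. All 5 inducible members were thus lower in every irradiated Balb/c array than in every irradiated C57BL/6 array, as were 9 of the 47 members and 12.4% of all tested genes, while 4 members and 15.1% of all genes were higher without overlap.

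Among the constitutive members the differences were of both signs. The 31 genes of the constitutive core and cap, taken without Psma8, had a median of -0.01 in irradiated mice, beside -0.37 for the 5 inducible members. Both medians are from the main fit alone. Of the 31, 15 were positive and 16 negative, and none was called. Psmb5, Psmb6 and Psmb7 were at -0.30 ± 0.16, -0.09 ± 0.13 and -0.23 ± 0.24, and their groups overlapped. Psmb2 (-0.58 ± 0.19, limma adjusted p = 0.0938) and Psmd4, the ubiquitin receptor Rpn10 (-0.56 ± 0.23, limma adjusted p = 0.179), were lower without overlap, and Psmc6 (0.55 ± 0.19, limma adjusted p = 0.114) was higher without overlap.

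**Figure D3:**
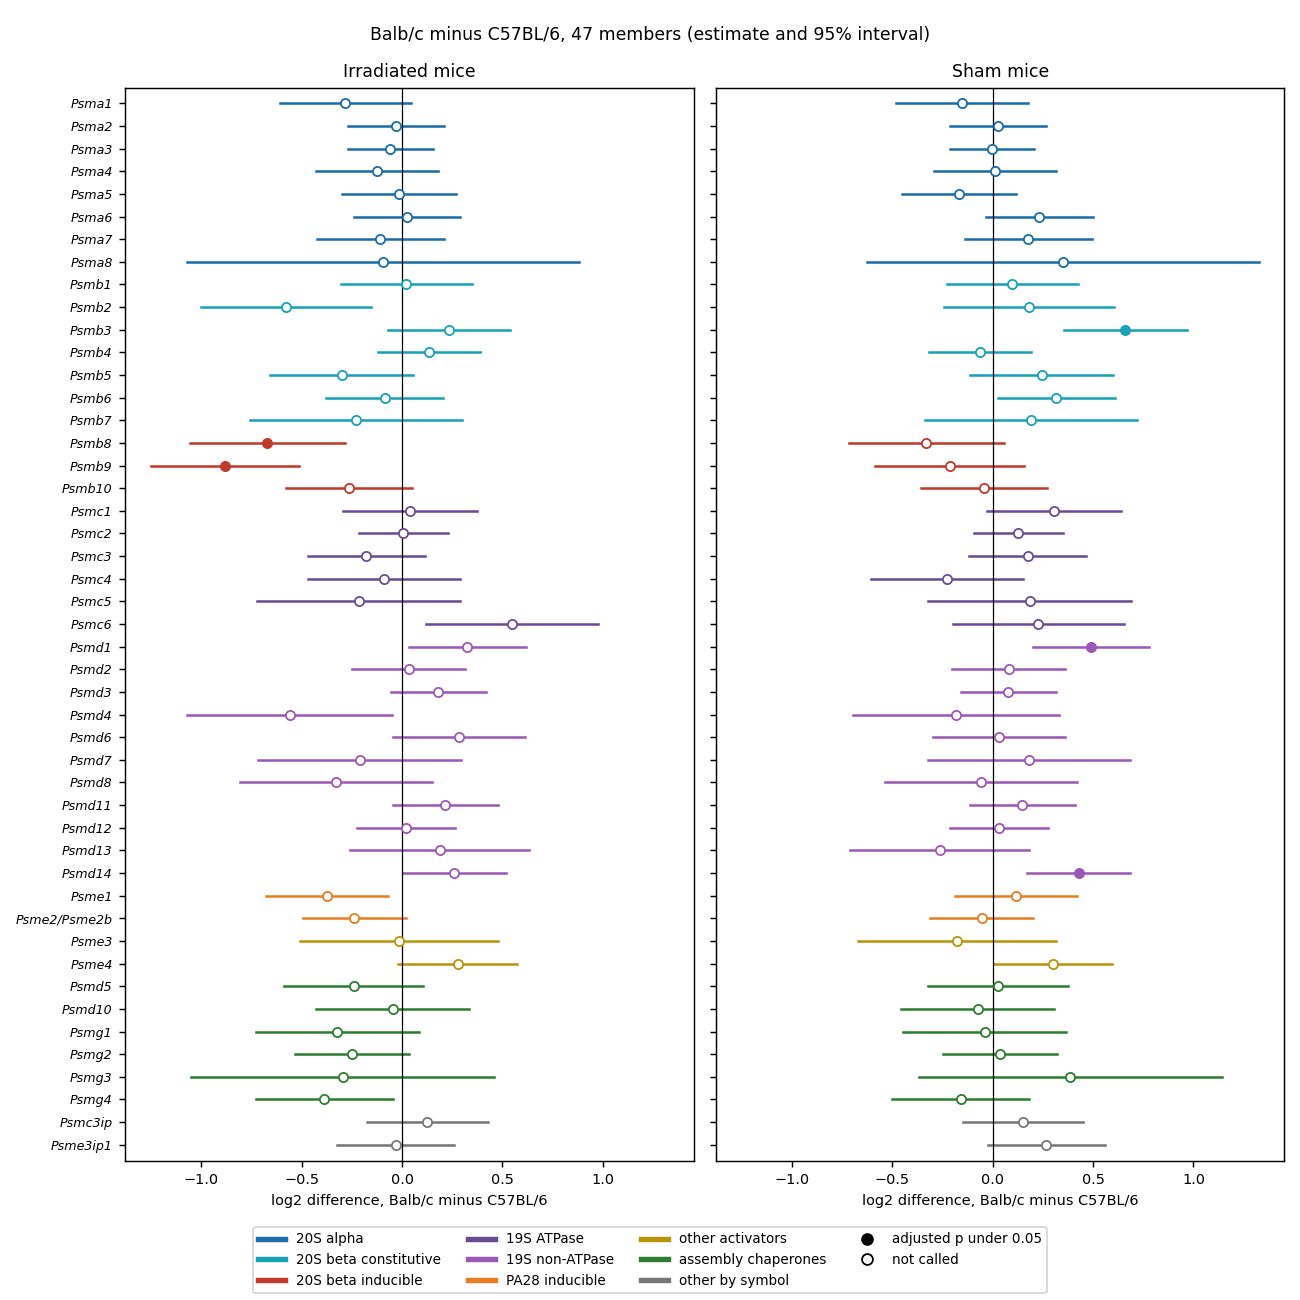
Balb/c minus C57BL/6 log2 difference of each of the 47 tested members in irradiated mice (left) and sham mice (right), with 95% intervals from limma, coloured by role. Filled circles mark called members: Psmb8 (-0.67) and Psmb9 (-0.88) in irradiated mice, and Psmb3 (0.66), Psmd1 (0.49) and Psmd14 (0.43) in sham mice.

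The strain differences of Psmb8 and Psmb9 changed with the 3' minus 5' covariate, and that of Psmb8 also with the choice of probe set. The irradiated Balb/c arrays had the higher 3' minus 5' signal given above, and replicate 2, which had the highest, was the lowest array for both genes. With that measure as a covariate Psmb9 was at -0.52 (limma adjusted p = 0.128) and Psmb8 at -0.36 (limma adjusted p = 0.506), and without that array and C57BL/6 irradiated replicate 3 they were at -0.61 (limma adjusted p = 0.0613) and -0.42 (limma adjusted p = 0.241). Psmb10, Psme1 and Psme2/Psme2b were at -0.273, -0.297 and -0.07 with the covariate. Without the 2 arrays they were at -0.26, -0.213 and -0.082. Psmb9 stayed called in all 12 fits that left out 1 array, while Psmb8 was lost in 6 of 12 (limma adjusted p from 0.0503 to 0.115), those without any of the C57BL/6 irradiated arrays, C57BL/6 sham replicate 2 or 3, or Balb/c irradiated replicate 2. Without that last array the Psmb8 difference was -0.49. Of the 2 probe sets for Psmb8 the dimmer gave -0.08 in the same comparison, and Psmb9 was read by 1. A difference between strains in the RNA cannot be told apart here from a difference in the sequence that the probes bind.

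Probe sets of a gene also differed for other members. Of the 18 members with several probe sets above the filter, 10 had probe sets of opposite sign between irradiated strains, 8 between sham strains, 11 for irradiation in Balb/c and 5 for irradiation in C57BL/6. The dimmer probe set of Psmb3 gave 0.57 between sham strains, beside 0.66, but -0.40 between irradiated strains, beside 0.23. The second probe set of Psmc1 lay at the bottom of the scale, with a mean of 2.23, while Psmd1, Psmd14 and Psme3ip1 were each read by 1.

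Genes that neighbour the inducible subunits were compared next. Psmb9 and Tap1, a subunit of the transporter that carries proteasome products to MHC class I, are transcribed away from each other, with 225 bases between their first bases, and Psmb8 starts 969 bases after the end of Tap1. Tap1 had 5.67, 5.67 and 5.64 in Balb/c irradiated and 5.12, 4.36 and 4.82 in Balb/c sham arrays, and 6.46, 6.77 and 6.64 in C57BL/6 irradiated and 6.18, 5.81 and 6.03 in C57BL/6 sham arrays. Every irradiated array lay above every sham array of its strain. Tap1 rose in Balb/c by 0.89 ± 0.18 (limma adjusted p = 0.0167) and on average by 0.76 ± 0.13 (limma adjusted p = 0.00368), and its difference in C57BL/6 was 0.62 ± 0.18 (limma adjusted p = 0.084). It was lower in Balb/c than in C57BL/6, at -0.96 ± 0.18 in irradiated mice (limma adjusted p = 0.00608) and at -1.24 ± 0.18 in sham mice (limma adjusted p = 0.00106). Its neighbours Psmb9 and Psmb8 averaged -0.09 ± 0.12 and -0.02 ± 0.12 with irradiation.

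**Figure D4:**
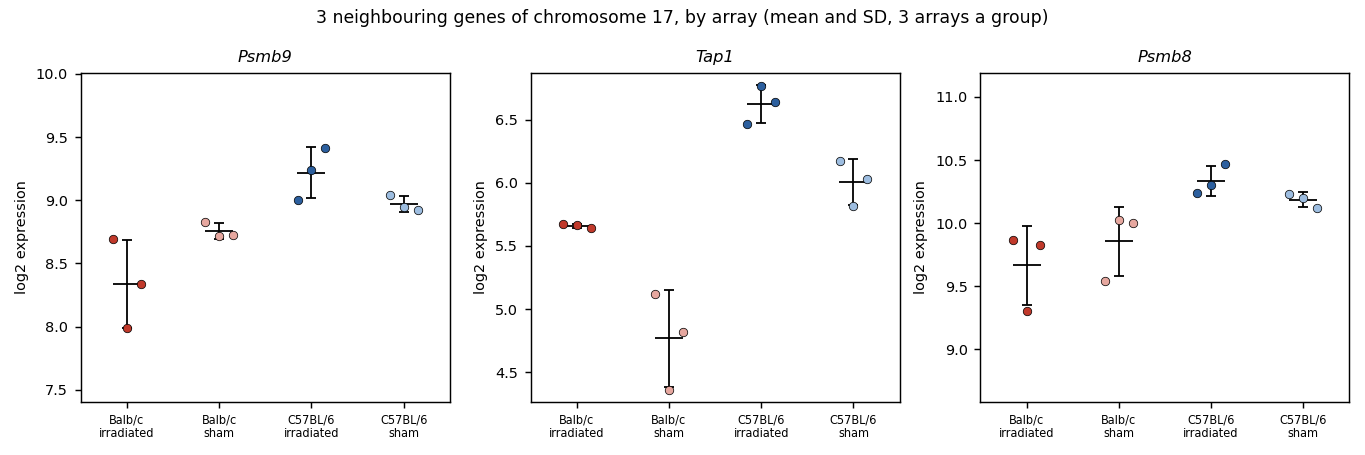
Log2 expression of Psmb9, Tap1 and Psmb8, which lie next to each other on chromosome 17. Points are arrays in order of replicate number, lines and bars are the mean ± SD (n = 3), and every panel spans the same number of log2 units. All irradiated arrays of Tap1 lie above the sham arrays of their strain, while those of Psmb9 in Balb/c lie below.

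The peptide loading and MHC class I list held 13 genes, of which 11 were on the array and 10 were tested. With irradiation in Balb/c, 1 was called higher (Tap1) and 1 lower (Tapbpl, a peptide editor, -0.71 ± 0.19, limma adjusted p = 0.0497). None was called in C57BL/6, where 4 had an unadjusted p under 0.05 by limma, beside 21.3% of all genes. On average 1 was called higher and 1 lower, the same genes (Tapbpl -0.58 ± 0.13). Of all genes 6.15% were called in Balb/c, 3.67% in C57BL/6 and 15.9% on average. Between strains 3 were lower in Balb/c, both in irradiated and in sham mice: Tap1 and the class I heavy chains H2-K1 and H2-D1. Of all genes 8.97% were called in either direction between irradiated and 10.5% between sham strains. H2-K1 was at -2.82 ± 0.34 in irradiated and -1.95 ± 0.34 in sham mice, and H2-D1 was at -3.37 ± 0.45 in irradiated and -2.16 ± 0.45 in sham mice. H2-K1 had a C57BL/6 irradiation difference of 0.97 ± 0.34 (limma adjusted p = 0.138). The interactions of H2-D1 (-1.21 ± 0.63) and H2-K1 (-0.86 ± 0.48) were not called. Both genes are highly variable between mouse strains, and the limit on probe sequence given above holds for them too. Tap2 lay below the filter.

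Regulators of the inducible genes were taken from a list of 17, of which 16 were on the array and 12 tested. With irradiation 1 was called in Balb/c, 0 in C57BL/6 and 2 on average, where 6.15%, 3.67% and 15.9% of all tested genes were. Between sham strains 1 was called higher and 1 lower, where 10.5% of all genes were called in either direction. Between irradiated strains 1 was called, lower, where 8.97% of all genes were called in either direction. Irf8, a transcription factor of microglia and other myeloid cells, fell in Balb/c by 0.90 on the log2 scale (SE 0.16, limma adjusted p = 0.0102), was at -0.39 ± 0.16 in C57BL/6 (limma adjusted p = 0.189) and fell on average by 0.65 (SE 0.11, limma adjusted p = 0.00475). Stat3, a cytokine signal transducer, fell on average by 0.85 (SE 0.25, limma adjusted p = 0.0463), with -1.12 ± 0.36 in C57BL/6 (limma adjusted p = 0.113). Irf1, the factor known for driving Psmb9 and Tap1 together, was at -0.25 ± 0.22 in Balb/c and -0.16 ± 0.22 in C57BL/6. Its Balb/c minus C57BL/6 difference was -0.57 ± 0.22 in irradiated mice (limma adjusted p = 0.156) and -0.48 ± 0.22 in sham mice (limma adjusted p = 0.229), neither called. Irf9, part of the type I interferon response complex, was at 0.42 ± 0.18 in Balb/c (limma adjusted p = 0.186).
Between strains, Ifngr1, a chain of the interferon gamma receptor, was lower in Balb/c, at -0.84 ± 0.15 in irradiated mice (limma adjusted p = 0.00554) and -0.59 ± 0.15 in sham mice (limma adjusted p = 0.0328), and Ifnar2, a chain of the type I interferon receptor, was higher in Balb/c sham mice by 0.75 ± 0.13 (limma adjusted p = 0.00299). Jak1, a kinase of both receptors, was at -0.38 ± 0.12 in irradiated mice (limma adjusted p = 0.0771). The interactions of Ifnar2 (-0.50 ± 0.18) and Irf8 (-0.51 ± 0.23) were not called. Nlrc5, the class I transactivator, lay below the filter. It had values of 4.16 to 4.37 in Balb/c irradiated and 2.70 to 3.32 in Balb/c sham arrays, and 4.90 to 5.88 in C57BL/6 irradiated and 3.80 to 4.25 in C57BL/6 sham arrays.

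Usp18, an interferon-stimulated gene that was picked after its values were seen, was set beside the inducible subunits, none of which was called with irradiation. Usp18, a protease that removes the interferon-induced modifier Isg15, had 6.96, 7.60 and 7.30 in Balb/c irradiated and 4.93, 4.75 and 3.88 in Balb/c sham arrays, and 6.95, 7.32 and 8.07 in C57BL/6 irradiated and 5.73, 5.43 and 4.49 in C57BL/6 sham arrays. No irradiated array overlapped the sham arrays of its strain, the Balb/c sham arrays all lay below 5, and Usp18 rose by 2.77 ± 0.39 in Balb/c (limma adjusted p = 0.00326) and 2.23 ± 0.39 in C57BL/6 (limma adjusted p = 0.0133).

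The regulators and accessory factors of the proteasome numbered 22, of which 18 were on the array and tested. In neither strain was one called with irradiation. By limma 5 in Balb/c and 3 in C57BL/6 had an unadjusted p under 0.05, beside 22.8% and 21.3% of all genes. Averaged over the strains 2 of the 18 were called, both lower, where 15.9% of all tested genes were called in either direction. Both encode shuttle factors that bring ubiquitin-tagged proteins to the proteasome. Rad23b fell by 0.52 on the log2 scale (SE 0.13, limma adjusted p = 0.0217) and Ubqln4 by 0.32 (SE 0.09, limma adjusted p = 0.0397). In Balb/c alone they were at -0.62 ± 0.18 and -0.43 ± 0.13. The members of the list nearest to a call in C57BL/6 were the shuttle factor Ubqln2 (-0.44 ± 0.16) and the deglycosylase Ngly1 (0.34 ± 0.14), which activates the transcription factor that drives proteasome genes. The interaction was largest for Usp14, a deubiquitinase of the cap (0.59 ± 0.22), and -0.25 ± 0.15 for Akirin2, which in human cells brings proteasomes into the nucleus.
Between strains none was called. Ngly1 was at -0.47 ± 0.14 in irradiated mice (limma adjusted p = 0.0622) and -0.33 ± 0.14 in sham mice, Ecpas, an adaptor of the proteasome, at -0.50 ± 0.15 in irradiated mice (limma adjusted p = 0.0629), and Sem1, a small subunit of the lid, at -0.27 ± 0.11 in sham mice. By limma, 4 of the 18 in irradiated and 3 in sham mice had an unadjusted p under 0.05, beside 22.5% and 22.8% of all genes.

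Of 11 genes that encode ubiquitin or enzymes that attach it, 5 were on the array with a probe set of their own and 4 were tested. None was called in any comparison. By limma 0 to 2 had an unadjusted p under 0.05, beside 8.06% to 31.7% of all genes, depending on the comparison. Ube2k, a conjugating enzyme, was at -0.27 ± 0.12 with irradiation in Balb/c and 0.27 ± 0.12 in C57BL/6, with an interaction of -0.54 ± 0.17 (limma adjusted p = 0.501). Between strains it was at -0.27 ± 0.12 in irradiated and 0.27 ± 0.12 in sham mice. Uba6, an activating enzyme, was at -0.28 ± 0.18 in Balb/c and 0.20 ± 0.18 in C57BL/6, with an interaction of -0.48 ± 0.25, an average of -0.04 ± 0.13 and a difference of 0.59 ± 0.18 between sham strains (limma adjusted p = 0.0631). The conjugating enzymes Ube2d3 and Ube2n were at 0.05 ± 0.09 for the average over strains and at -0.25 ± 0.29 between irradiated strains.

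Markers of other cells moved with some of these comparisons, and their part in the results was not tested. Of 4 neutrophil markers on the array 2 passed the filter and 2 were below 5 on all arrays, and they summed to 9.7 to 11.67 in Balb/c irradiated against 6.56 to 7.19 in Balb/c sham arrays, and to 8.84 to 10.82 in C57BL/6 irradiated against 8.78 to 10.92 in C57BL/6 sham arrays. The 2 that passed were called higher with irradiation in Balb/c and on average, and lower in Balb/c sham than in C57BL/6 sham mice. All 4 astrocyte markers passed, and they summed to 11.77 to 12.46 in Balb/c irradiated against 10.93 to 11.47 in Balb/c sham arrays, and to 11.48 to 11.85 in C57BL/6 irradiated against 10.83 to 11.27 in C57BL/6 sham arrays. Of these, 2 were called higher with irradiation in Balb/c and 3 on average. Of the 6 monocyte markers 4 were called higher in C57BL/6, 2 in Balb/c and 4 on average. Of all genes 3.67%, 6.15% and 15.9% were called in these comparisons in either direction. Between irradiated strains 1 monocyte, 1 border-associated macrophage, 1 B cell and 1 microglial marker were called lower in Balb/c and none higher, where 4.59% of all genes were lower. Of the 7 microglial markers 1 was also called lower on average with irradiation and 1 in Balb/c between sham strains. Of the 6 markers of border-associated macrophages 2 were called higher with irradiation in Balb/c and 5 on average, and they summed to 13.44 to 13.75 in Balb/c irradiated against 12.8 to 13.03 in Balb/c sham arrays, and to 14.18 to 14.49 in C57BL/6 irradiated against 13.15 to 14.31 in C57BL/6 sham arrays. B cell markers, of which 2 of 3 were below 5 on all arrays, summed to 5.22 to 5.62 in Balb/c irradiated and 5.60 to 5.99 in Balb/c sham arrays, against 7.11 to 7.93 in C57BL/6 irradiated and 7.74 to 8.07 in C57BL/6 sham arrays. T and NK cells are known for releasing interferon gamma. The sum of their markers was 5.28 to 8.33 in Balb/c irradiated against 5.26 to 5.29 in Balb/c sham arrays. In C57BL/6 it was 7.81 to 8.7 in irradiated against 6.12 to 7.28 in sham arrays, without overlap.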

How the data were processed

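RNA from CD11b+ cells of 12 mice was measured on Affymetrix arrays. For each of 45101 probe sets the authors deposited a log2 value. Per the submitters' processing notes these come from GCRMA, a background correction and summary of the probes (version not given in the sources used here). Sorted, the arrays differ by at most 0.00034 and run from 2.23 to 16.2, as after quantile normalization.

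Of the probe sets, 34945 had 1 symbol and 932 several. Only Psme2/Psme2b was used from a set with several symbols. Log2 values were fitted with lmFit and eBayes in limma 3.58.1 (R 4.3.3), with a mean for each group and 8 degrees of freedom. The Benjamini-Hochberg adjustment ran over all 9121 genes kept, and a call needs an adjusted p under 0.05. Errors of differences are standard errors. The test was tried on simulated data. No batch is given in the labels. Replicate numbers were checked by correlating deviations from the group means: 9 of 18 pairs of samples with the same number in different groups were above 0.1, against 9 of 36 pairs with other numbers. Between the irradiated groups all 3 same-number pairs were (r from 0.217 to 0.447) and 5 of 6 other pairs were negative, so the numbers were taken to pair the samples in that comparison, and its block is given beside the result.

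The members, lists and alternatives were chosen with earlier results of these data known. Named in full are the 5 inducible genes and their 3 counterparts. Also named are members called, per role up to 3 with the smallest p for average irradiation and 1 for the sham strains, and per related list and comparison the genes called and the 2 with the smallest p. Usp18, Cdkn1a and Irf1 and other members with an unadjusted p under 0.05 were named after their values were seen. Alternatives were other filters, centring, a floor, averaged probe sets, eBayes with trend and robust, the compared groups alone, a replicate block, the 3' minus 5' covariate and left-out arrays. Protein sequences were not used here.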

Additional observations from a re-analysis of the deposited data

How the results depend on the processing

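No alternative turned the sign of a called difference of a member. The count of members called was 0 for C57BL/6 irradiation and 0 for the interaction under every alternative run. For Balb/c irradiation it became 1 (Psme3ip1) with a filter at 7, with centring, with a floor at 4 and with averaged probe sets, and 0 to 1 when single arrays were left out. For the average it became 0 without a filter, with the 3' minus 5' covariate and without the 2 arrays that stood apart, and 1 with averaged probe sets, and 0 to 2 with single arrays left out. For the sham strains it became 1 (Psmb3) with centring, with the compared groups alone and with the covariate, and 1 to 3 with single arrays left out. For the irradiated strains it became 1 (Psmb9) without a filter, and 0 with the compared groups alone, with the covariate and without the 2 arrays, and 1 to 2 with single arrays left out. With the compared groups alone Psmb9 had a limma adjusted p of 0.0632. With averaged probe sets Psmc3ip was called between sham strains (0.48, limma adjusted p = 0.0335). Psmb3 between sham strains was called under all 10 other settings. The cause of these losses was not tested. Outside the irradiated strain comparison the replicate numbers did not meet the rule for pairing. In 20 of 36 comparisons of a sample with the samples of another group it correlated best with its own number, a hint from the data and not from the design. With the replicate block the average count was 1 (Psme3ip1), or 1 (Psmc1) with the block within strain, the sham strain count was 2 (Psmb3 and Psmd14), and the irradiated strain count was 1 (Psmb9). The block changed no other count of members called. The number of arrays limits what can be called, and no scanner files were used here, so the background correction was not varied.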

Other observations

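The 5 inducible members were averaged per array, and the 9074 tested genes outside the proteasome were ranked by their correlation with that average over the 12 arrays, as a description. With the group means kept, the nearest genes were Hdgf, a growth factor (r = 0.93, Spearman 0.888), Mrpl20, of the mitochondrial ribosome (0.929), Trappc4 (0.923), Cd9, a tetraspanin (0.923), and Commd7 (0.921), and H2-D1 ranked 19, H2-K1 47 and Tap1 1131. With each group's mean taken out, so that only mice of the same group are compared, they were Itih3 (r = 0.96, Spearman 0.93), Cd72, a B cell and myeloid receptor (0.936), Iqgap1 (0.931), Polr2f (0.924) and Erap1 (0.92), the peptidase that trims proteasome products for MHC class I. Tap1 then ranked 3330 with r = 0.138, beside 114 for H2-K1 and 72 for H2-D1. All genes are read on the same arrays and share their RNA quality, and replicate 2 of the Balb/c irradiated mice, with the highest 3' minus 5' signal, was the lowest of its group for all 5 inducible members.

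Within Balb/c irradiated mice that array was also low for Psmb5, Psmb7, Psmd7, Psmd8 and Psmg3, with values of 10.76, 7.0, 7.37, 8.80 and 4.91 beside 11.24 to 11.33, 7.60 to 7.88, 7.95 to 8.07, 9.33 to 9.69 and 6.17 to 6.46 in the other arrays of the group. It was the highest of the group for Psma5, Psma8 and Psmd6, with 12.31, 7.10 and 12.88. These members were chosen after their values were seen.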
